A study of Mus musculus with 3 samples.

Results

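Of 10069 NR2F2 binding peaks in fetal mouse testis, 969 (9.62%) lay at divergent promoters, where transcription start sites (TSSs) of 2 different genes on opposite strands were found within 1 kb of the peak edges. The TSSs were those of the curated RefSeq transcripts (NM_ and NR_) on the GRCm38 assembly, which is the mm10 build of the peaks. A further 4871 peaks had at least 1 TSS in the same window without an opposite-strand partner from another gene, and these are called other promoter peaks here. The remaining 4229 peaks had no TSS within 1 kb. The profiles came from ChIP-seq, in which DNA bound by a protein is precipitated with an antibody and sequenced. The tissue was pooled whole testes of the outbred mouse stock CD-1 at E14.5, taken without the mesonephros. Sheared chromatin was precipitated with an antibody against NR2F2 (COUP-TFII) in 2 independent experiments, and 1 input library was made from chromatin without precipitation. The same testes hold interstitial, Leydig, Sertoli, germ and endothelial cells, so the counts are sums over all of them. A peak count cannot tell binding in more cells from stronger binding in fewer.

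NR2F2 is an orphan nuclear receptor that marks the non-steroidogenic interstitial cells of the fetal testis, and it recognises DNA through the nuclear receptor core AGGTCA or GGGTCA, alone or as repeats. A direct repeat of that core with a single base between the copies is also a site for HNF4 and for partners of the retinoid X receptor. At a divergent promoter, a pair of genes is read outwards from one shared stretch of open, CpG-rich DNA. Such pairs are common among housekeeping genes of DNA repair, RNA processing and the mitochondrion, and often join a protein-coding gene with a non-coding RNA.

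The letters under the 10 head-to-head members with the most ChIP counts, and under 4 other promoters described below, are shown first, because many of the results turn on them. Each line gives the core nearest to the peak midpoint with 10 bases on either side, read 5′ to 3′ on the strand that spells the core, with the core in capitals (AGGTCA or GGGTCA). Etohd2/Isca1 is shown with the spacers further on. The pair is named with the plus-strand gene first. In GRCm38 coordinates the sites lay at chr1:57406752-57406777 on the plus strand (Maip1/Tyw5), chr1:74506291-74506316 on the plus strand (Cnot9/Usp37), chr19:45998122-45998147 on the plus strand (4930505N22Rik/Armh3) and chr6:50566951-50566976 on the minus strand (5430402O13Rik/Cycs). They were followed by chr13:74350021-74350046 on the minus strand (Ccdc127/Sdha), chr1:63177041-63177066 on the minus strand (Eef1b2/Ndufs1), chr3:37420249-37420274 on the minus strand (Spata5/Nudt6) and chr15:98093415-98093440 on the plus strand (Pfkm/Senp1). Those with GGGTCA lay at chr12:101975909-101975934 (Cpsf2/Ndufb1), chr2:158028666-158028691 (Rprd1b/Tti1), chr17:6079725-6079750 (Gtf2h5/Serac1) and chr5:31697635-31697660 (Babam2/Rbks), all on the minus strand. The Hspe1/Hspd1 promoter had a core in each of its peaks, at chr1:55087440-55087465 and at chr1:55088091-55088116, both on the plus strand.
Maip1/Tyw5: cagaggtgaaAGGTCAcaaacatggc
Cnot9/Usp37: cagaggtgagAGGTCAaaggcccgcg
4930505N22Rik/Armh3: ctggggtcaaAGGTCAgcgcctcggc
5430402O13Rik/Cycs: aacagagtaaAGGTCAccagcaggcg
Ccdc127/Sdha: tttccggcgaAGGTCAcgaccccgag
Eef1b2/Ndufs1: tagaggttaaAGGTCAaggtccgttc
Spata5/Nudt6: tccgggtcagAGGTCAgcggcgcggc
Pfkm/Senp1: gtgggacaagAGGTCAaagagcgagc
Cpsf2/Ndufb1: gtgacgaaccGGGTCAgggaagagga
Rprd1b/Tti1: gccgccacggGGGTCAaagggcaagg
Gtf2h5/Serac1: ctcagaggcgGGGTCAcgtgctcact
Babam2/Rbks: cctggttacgGGGTCAggcaaagggc
Hspe1/Hspd1, first peak: gccccgagcaAGGTCAaagtgaacac
Hspe1/Hspd1, second peak: cgtgggtgaaAGGTCAagtggcgtca

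For 3 head-to-head pairs the whole stretch between the start sites that no annotated exon covers is shown, on the plus strand, to display what a shared promoter looks like. The Etohd2/Isca1 spacer (chr13:59769790-59769965, 176 bases) lay wholly inside its peak, and the Trmt2a/Ranbp1 spacer (chr16:18248695-18248846, 152 bases) had 131 bases inside the peak. The Hspe1/Hspd1 spacer (chr1:55087933-55087988, 56 bases) was wholly inside the second peak of that pair. Capitals mark the core, which reads TGACCT or TGACCC where it stands on the minus strand. The first 2 spacers each held 2 cores separated by 1 base, and the third held none, since the core of that peak lay outside the spacer.
Etohd2/Isca1: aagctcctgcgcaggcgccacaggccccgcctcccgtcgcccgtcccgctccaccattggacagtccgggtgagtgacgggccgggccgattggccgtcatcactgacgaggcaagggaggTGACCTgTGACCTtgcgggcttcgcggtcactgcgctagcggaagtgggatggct
Trmt2a/Ranbp1: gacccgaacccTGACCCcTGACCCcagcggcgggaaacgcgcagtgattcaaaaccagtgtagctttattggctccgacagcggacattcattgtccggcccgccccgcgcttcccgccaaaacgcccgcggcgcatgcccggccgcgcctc
Hspe1/Hspd1: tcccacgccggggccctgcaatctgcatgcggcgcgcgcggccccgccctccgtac

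The arrangement of the pairs was examined first. Taking for each peak the opposite-strand pair nearest to its midpoint, 772 of 969 members (79.7%, Wilson 95% interval 77.0% to 82.1%) sat at head-to-head pairs, whose genes are read away from each other. The other 197 sat where the 5′ ends of the genes overlapped, by a median of 333 bp, so these promoters are divergent only in the sense of the rule. Both genes were protein-coding at 591 members, 1 was non-coding at 372 and both were non-coding at 6. In 11 members a pair gene was a microRNA hairpin, whose annotated start is that of the hairpin. The 969 peaks belonged to 916 gene pairs, of which 53 had 2 peaks, and 18 members had a further gene in the window.

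Start sites of head-to-head pairs were close together, with a median spacing of 166 bp (quartiles 88 and 314 bp, highest 1449 bp). The peak midpoint fell between the TSSs at 150 of these 772 peaks (19.4%). It lay past the plus-strand TSS at 291 and past the minus-strand TSS at 331, that is inside a transcribed gene. Short spacers leave little room for a midpoint, and no share expected from the spacing was computed. Within 150 bp of the pair centre there were 259 midpoints (33.5%). A peak of 300 bp covered both TSSs at 110 head-to-head members (14.2%), 1 TSS at 338 and neither at 324. Where a protein-coding gene was paired with a non-coding one, the midpoint was nearer to the coding TSS at 143 of 259 peaks (55.2%).

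Measured from the nearest TSS, the midpoint was downstream at 724 of 969 members (74.7%) and at 3116 of 4871 other promoter peaks (64.0%). The share was 80.6% at head-to-head members and 51.8% at members with overlapping genes. At a head-to-head pair only a midpoint in the spacer is upstream of its nearest TSS, so a short spacer leaves few upstream positions. Over all peaks of each class, upstream ones included, the median signed distance was 95 bp and 92 bp in the direction of transcription. The members lay more tightly around the start, with a median absolute distance of 127 bp against 197 bp. A member has at least 2 TSSs in its window by the rule, which by itself shortens the distance to the nearest one. By the midpoint, 335 members lay in a 5′ UTR, 238 in an intron, 152 in a coding exon, 113 in a non-coding exon and 131 outside genes.

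**Figure D1:**
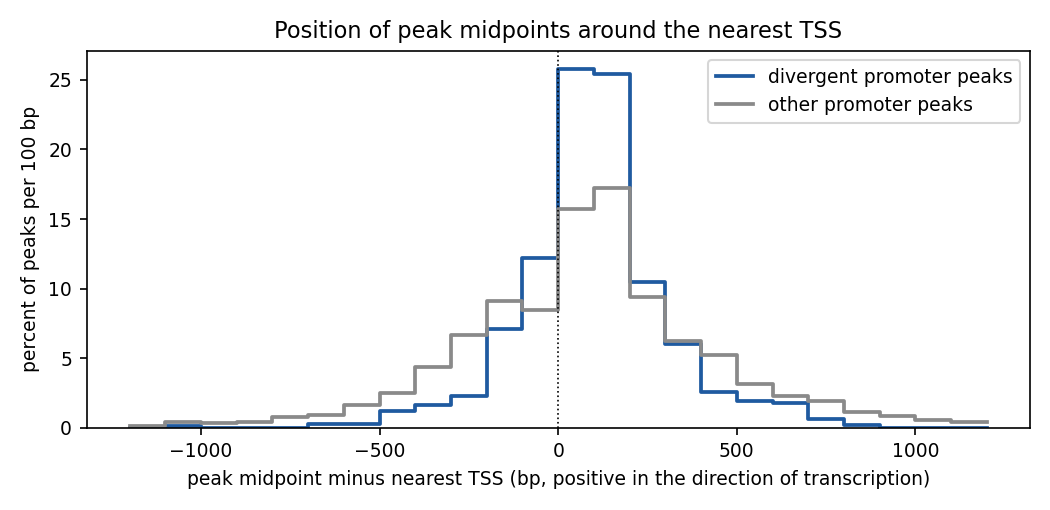
Distance of the peak midpoint from the nearest TSS in bp (x axis, positive in the direction of transcription) against the percent of peaks per 100 bp (y axis), for 969 divergent promoter peaks (blue) and 4871 other promoter peaks (grey). The bins from 0 to 100 bp and from 100 to 200 bp downstream held 25.8% and 25.4% of the members.

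Peaks were also counted over genes rather than over promoters. Of 2911 protein-coding genes with a divergent TSS in the annotation, 1506 (51.7%) had a peak within 1 kb of a TSS, against 4388 of 18089 (24.3%) of the remaining protein-coding genes. A pair shares its peaks, so these genes are not independent of each other and the shares were given no test. Counting only peaks that covered the TSS of the gene itself, the shares were 598 of 2911 (20.5%) and 1792 of 18089 (9.91%). Expression of the genes was not measured in these files, and its part in this difference was not tested.

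Read counts at the members were then compared with those at other promoter peaks. The members held 50048 of 426784 counts at peaks in ChIP replicate 1 (11.7%), 41328 of 364261 in replicate 2 (11.3%) and 7637 of 73251 in the input (10.4%). Their median count was 45 in replicate 1 (range 12 to 266), 37 in replicate 2 (4 to 297) and 8 in the input (0 to 23). Other promoter peaks had medians of 39, 32 and 7. Both ChIP libraries were thus higher at divergent promoters, the input was higher by 1 count, and the ranges of the classes overlapped. Each member had more counts in both ChIP libraries than in the input.

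The ratio of median ChIP counts, divergent over other promoter peaks, was 1.15 in replicate 1 and 1.16 in replicate 2. After division by the input, the median log2 ratio differed by only 0.07 ± 0.01 (SD, n = 2). Ratios had 0.5 added to each count and are known only up to the depth of the libraries, a factor that cancels between classes of peaks. With 2 ChIP libraries and 1 input this difference was given no test, and the SD covers the ChIP libraries alone. Among peaks with at least 10 input counts the count ratio was 1.05 and the log2 difference 0.02 ± 0.02.

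Divergent promoters were no richer in G and C than the others. The median GC content was 65.0% at members and 65.3% at other promoter peaks, against 53.3% at peaks without a TSS. The ratio of observed to expected CpG was 0.818, 0.781 and 0.251. In each of 5 strata of GC content the members had the higher median in both ChIP libraries, for example 49 against 42 in replicate 1 and 41 against 34 in replicate 2 in the middle stratum. The log2 ratio to input went the other way in 1 of these 10 comparisons, by -0.02 in replicate 2 between 66.7% and 69.7% GC.

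**Figure D2:**
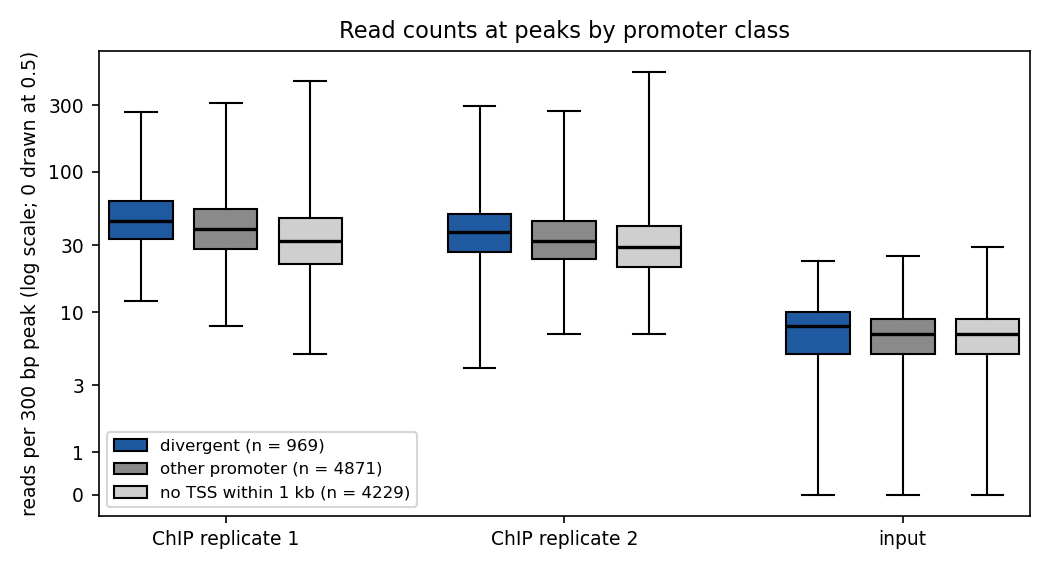
Reads per 300 bp peak on a log scale (y axis, 0 drawn at 0.5) in each library (x axis) for divergent promoter peaks, other promoter peaks and peaks with no TSS within 1 kb. Boxes give the quartiles with the median and whiskers the lowest and highest peak, and the members' medians of 45, 37 and 8 are the highest of the 3 classes in each library.

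Counts were also set side by side within the members, with no test. Head-to-head members had medians of 45 and 37 in the ChIP libraries and 8 in the input, and members with overlapping genes had 43, 37 and 8. Pairs of protein-coding genes had 47 and 39 with an input of 8, and pairs with 1 non-coding gene had 40 and 35 with an input of 7, close to the 39, 32 and 7 of other promoter peaks. Head-to-head pairs spaced by 300 bp and over had 50 and 42, against 44 and 36 for those spaced by under 50 bp. Where the midpoint lay between the TSSs of a head-to-head pair the medians were 53, 41 and 9, against 43, 36 and 7 where it lay inside a gene. In each of these contrasts the input was equal or moved in the same direction as the ChIP counts.

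The members were searched for the nuclear receptor core on both strands. AGGTCA or GGGTCA was present in 474 of 969 members (48.9%, Wilson 95% interval 45.8% to 52.1%), in 48% of other promoter peaks, in 73.7% of peaks without a TSS and in 27.5% of 32851 RefSeq promoters of the same length. Divergent promoters therefore held the core about as often as other promoters. Within the members the cores were spread across the 300 bp. Per 100 peaks there were 11.8 cores within 25 bp of the midpoint and 6.81 in the outermost 25 bp, where other promoter peaks had 14.8 and 6.38 and peaks without a TSS had 37.4 and 10.8. The core lay within 50 bp of the midpoint in 22.0% of members, in 24.1% of other promoter peaks and in 48.1% of peaks without a TSS.

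Counts with and without the core were set side by side, with no test. Members that held it had medians of 53 and 43 in the ChIP libraries, and members without it had 39 and 32. The input median was 8 in both. With a core within 50 bp of the midpoint the medians were 56 and 44. Other promoter peaks showed the same order, with 44 and 37 with the core, 35 and 29 without it and 7 in the input for both. GC content moved slightly in the opposite direction, with 64.7% in members with the core and 65.7% in those without.

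**Figure D3:**
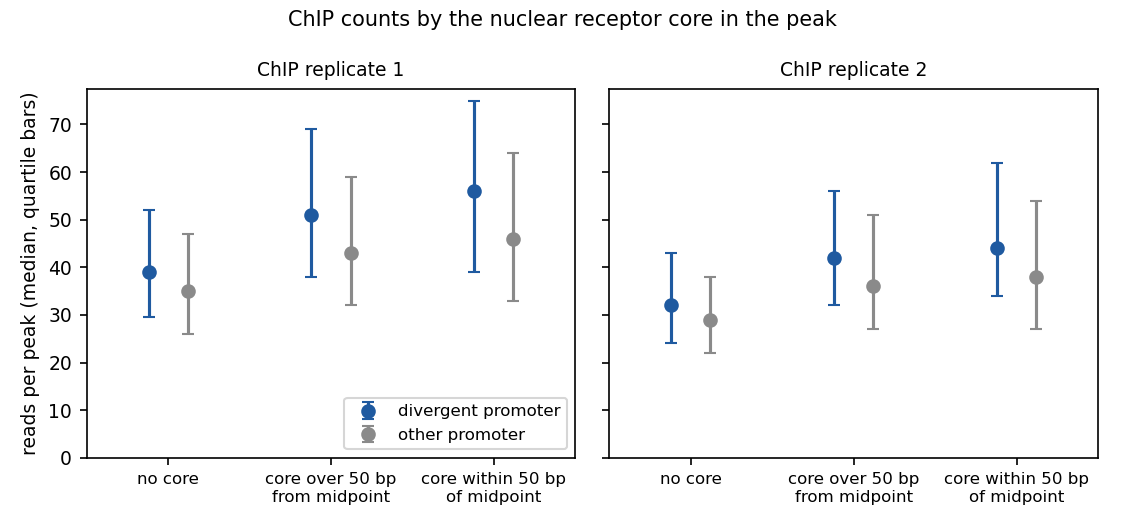
Reads per peak in ChIP replicates 1 and 2 (panels) for peaks without the core AGGTCA or GGGTCA, with it only over 50 bp from the midpoint, and with it within 50 bp (x axis), at divergent promoters (blue) and other promoters (grey). Points are medians and bars the quartiles, and the members' medians in replicate 1 were 39, 51 and 56.

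The printed sites led to a search for the direct repeat of the core with 1 base between the copies, chosen after the data had been seen. It was rare, in 16 of 969 members (1.65%, Wilson 95% interval 1.02% to 2.67%), 0.719% of other promoter peaks and 0.128% of RefSeq promoters. All 16 had over 129 ChIP counts summed over both libraries, as did 15.6% of all members and 9.94% of all peaks. Their counts ran from 77 to 193 in replicate 1 and from 71 to 183 in replicate 2, with medians of 109 and 92.5, whereas members without the repeat had medians of 44 and 37. The input median was 8 in both groups. The repeat was noticed in sequences shown for strong peaks, and 4 of the 16 were among those. The other 12 had medians of 94 and 83 over 8. The 35 other promoter peaks with the repeat also had higher counts, with medians of 77 and 81 against 39 and 32 without it. At peaks without a TSS the repeat was more common (4.45%), and the medians were 33 in both ChIP libraries with it against 32 and 28. The 16 promoters included Asxl1/2500004C02Rik, with 113 and 122 ChIP counts over 6 in the input, where Asxl1 encodes a Polycomb-associated chromatin factor.

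Of the other motifs counted, intervals were computed only for CCGGAAGT and TCTCGCGA. They did not overlap between divergent and other promoter peaks. These intervals treat peaks as independent, and no test was made. The peak overlapped a TSS at 57.8% of members and at 38.6% of other promoter peaks, and its part in the motif shares was not tested. The ETS-type sequence CCGGAAGT was found in 91 members (9.39%, Wilson 95% interval 7.71% to 11.4%) and in 5.99% of other promoter peaks (5.36% to 6.70%), against 3.89% of RefSeq promoters. The palindrome TCTCGCGA was found in 27 members (2.79%, 1.92% to 4.02%) and in 1.27% of other promoter peaks (0.994% to 1.63%), against 0.995% of RefSeq promoters. The GC box GGGCGG was present in 57.5% and 57.3%. Members with CCGGAAGT had ChIP medians of 49 and 37, and those without it had 44 and 37.

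Each peak was next tested against the typical ChIP to input ratio of all 10069 peaks with edgeR's quasi-likelihood test and Benjamini-Hochberg adjustment over all peaks. At an adjusted p under 0.05 it called 37 of 969 members above the typical ratio (3.82%), where the background was 1.53% of all peaks and 1.52% of other promoter peaks were called. It called 0 members below, where the background was 0.0497%, with 17 members (1.75%) at an unadjusted p under 0.05, against 2.55% of all peaks, and 0 by DESeq2. The input was low at many of the 37, with at most 3 counts at 14 of them (37.8%) against 10.7% of all members. A core was present in 35 of the 37 (94.6%), as in 86.5% of the 74 other promoter peaks called. The exceptions were Tsen54/Caskin2 and Naa50/Atp6v1a. With DESeq2 size factors in edgeR 7 members (0.722%) were called against 0.387% of all peaks, and with at least 10 input counts 13 of 302 (4.30%) against 2.39%. DESeq2 itself called 3 of the 116 members that it left with an adjusted p (2.59%). That was below its 3.15% of all such peaks and 3.89% of such other promoter peaks, with other size factors. The remaining peaks had no adjusted p, so these shares cover a smaller set than those of the other fits to all peaks.

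Under equal depth of all 3 libraries, 819 of 969 members (84.5%) were above input by the same edgeR test, beside a background of 80.7%. Peak calling had used these same ChIP reads, merged, so this is no independent evidence of binding. The count rests on the assumed depth and was 0 when both ChIP libraries were set to 2 times the input's depth. In that fit, as in all others here, the single input was assumed to vary like the ChIP libraries.

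**Figure D4:**
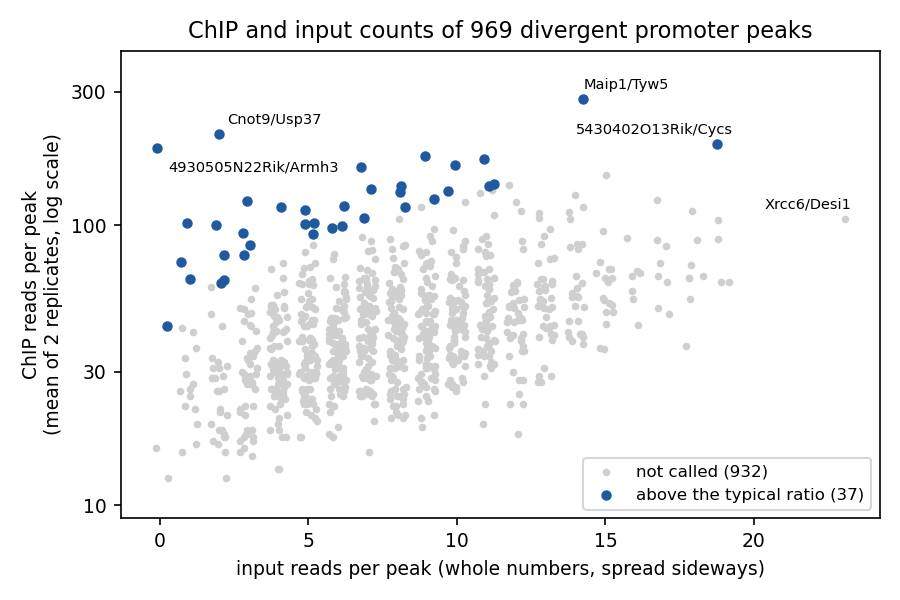
Mean ChIP reads per peak over 2 replicates (y axis, log scale) against input reads (x axis, spread sideways around whole numbers) for 969 divergent promoter peaks. The 37 peaks called above the typical ratio by edgeR (blue) form the upper left edge, from input counts of 0 up to 19.

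The strongest member was the promoter shared by Tyw5, which encodes an enzyme of wybutosine synthesis in tRNA, and Maip1, a mitochondrial protein of the matrix protease system. It had 266 and 297 ChIP counts over 14 in the input, and the genes overlapped by 408 bp at their 5′ ends. Its log2 ratio to the typical peak was 2.02 ± 0.29 (SE, edgeR adjusted p = 6.45e-08). It was called under all 5 alternative fits (adjusted p 6.45e-08 to 0.0349). The members Cnot9/Usp37 and 4930505N22Rik/Armh3 were called under the 4 of these that tested them. The robust edgeR fit, which is among the alternatives, gave each of these members the same adjusted p as the main fit, so it adds nothing.

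The peak of the strongest head-to-head member began 134 bp inside Cnot9, which encodes a subunit of the CCR4-NOT deadenylase. Its partner Usp37, a deubiquitinase gene, starts 239 bp away. The counts were 198 and 225 over 2 in the input, a raw ratio of 99.0 in replicate 1 (exact 95% interval 27.0 to 823) and 112 in replicate 2 (30.8 to 935). Its log2 ratio to the typical peak was 4.39 ± 0.52 (SE, edgeR adjusted p = 1.88e-12, and up to 0.0155 in the alternatives). The spacer of this pair lay wholly outside the peak.

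Among the 10 head-to-head members with the most ChIP counts, 4 held a gene of the respiratory chain, as did 34 of all 969 members. The peak at the pair of 5430402O13Rik, a non-coding RNA with an exon at the peak midpoint, and Cycs, the gene of cytochrome c, had 210 and 180 counts over 19 in the input, so that it was high in every library. Its log2 ratio was 1.04 ± 0.30 (edgeR adjusted p = 0.0416, 0.00429 to 0.313 in the alternatives). Cpsf2/Ndufb1, a gene of mRNA 3′ end cleavage with a complex I subunit, had 179 and 167 over 11 (log2 ratio 1.66 ± 0.36, edgeR adjusted p = 0.00109, up to 0.130 in the alternatives). Eef1b2/Ndufs1 pairs a translation elongation factor with the largest subunit of complex I across 9 bp, and had 143 and 133 over 8 (log2 ratio 1.79 ± 0.42, edgeR adjusted p = 0.00339, up to 0.142). Ccdc127/Sdha, with the catalytic subunit of succinate dehydrogenase, had 168 and 133 over 15 and was not called (log2 ratio 1.01 ± 0.34, edgeR adjusted p = 0.124, but 0.0146 with at least 10 input counts).

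Others in this group had comparable ChIP counts. Etohd2/Isca1, whose coding gene acts in iron-sulphur cluster assembly, had 190 and 139 over 10 (log2 ratio 1.71 ± 0.38, edgeR adjusted p = 0.00109, up to 0.130). Rprd1b/Tti1, with a gene of an RNA polymerase II tail-binding protein, had 178 and 146 over 7 (log2 ratio 2.21 ± 0.42, edgeR adjusted p = 5.29e-05, up to 0.0693). At Gtf2h5/Serac1, where Gtf2h5 encodes a subunit of the general factor TFIIH, both ChIP libraries had 140 counts over 11 in the input. Spata5/Nudt6 had 150 and 125 over 11, and these 2 pairs passed the edgeR test narrowly with adjusted p = 0.0334 and 0.0423, and reached 0.261 and 0.282 in the alternatives. Babam2/Rbks, with a BRCA1-A complex gene, had 134 and 145 over 12 and did not pass (edgeR adjusted p = 0.0601, but 0.00788 with at least 10 input counts).

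The largest fitted ratios belonged to members with few input counts. At 4930505N22Rik/Armh3 the counts were 193 and 183 with 0 in the input, at least 64.3-fold and 61.0-fold higher against a floor of 3 counts. At 2410022M11Rik/Zmym5, a non-coding RNA with a zinc finger gene, they were 47 and 40 with 0 in the input, at least 15.7-fold and 13.3-fold higher. The other 2 members at an input of 0 were weak. 4930577N17Rik/Elf2 had 12 and 13 ChIP counts and 4930599N23Rik/Parp12 had 18 and 14, and neither was called.

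With 1 to 3 input counts the ratio is poorly bounded. Trmt2a/Ranbp1, a tRNA methyltransferase gene with a regulator of the Ran GTPase, had 114 and 90 over 1, ratios of 114 (exact 95% interval 20.1 to 4540) and 90.0 (15.7 to 3590). Naa50/Atp6v1a, an acetyltransferase gene with the catalytic subunit of the vacuolar proton pump, had 59 and 69 over 1. Tsen54/Caskin2, with a subunit of the tRNA splicing endonuclease, had 124 and 77 over 2. Pfkm/Senp1, muscle phosphofructokinase with a SUMO protease, had 139 and 106 over 3, ratios of 46.3 (15.5 to 227) and 35.3 (11.8 to 174). Fam120aos/Fam120a had 71 and 56 over 2 and Wdr7/Gm41754 had 77 and 79 over 2. All 6 were above the typical ratio by edgeR, with adjusted p from 1.96e-05 to 0.0383. Each lost its call in at least 1 alternative, where the highest adjusted p ran from 0.0687 at Pfkm/Senp1 to 0.232 at Fam120aos/Fam120a.

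Members with the highest input counts differed among themselves. Xrcc6/Desi1, where Xrcc6 encodes the Ku70 subunit of DNA end joining, had 115 and 95 ChIP counts over 23, with its log2 ratio at -0.13 ± 0.33. Lsm1/Bag4, with a gene of mRNA decay, had 96 and 83 over 19, with its log2 ratio at -0.08 ± 0.37. Neither passed the test (edgeR adjusted p = 0.955 and 0.978). In all, 5 members shared the input count of 19. 5430402O13Rik/Cycs was called as given above, and the log2 ratios of the 3 not named ran from -0.60 to 0.13, with no call by edgeR.

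The replicates were compared at each member by an exact two-sided binomial test with adjustment over all peaks. It found 0 members that differed at an adjusted p under 0.05, beside a background of 0.0993%. At an unadjusted p under 0.05 there were 74 members (7.64%), beside a background of 8.83%. Replicate 1 had the higher count at 749 of 969 members. This test compares the ChIP libraries and not conditions, and it covers counting error only.

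Gene functions were described by lists of symbols. Most housekeeping lists were rich in divergent genes before any peak was considered, since 13.9% of 21000 protein-coding genes had a divergent TSS, against 42.7% of 110 DNA repair genes, 40.2% of 82 genes of the mitochondrial ribosome and 34.7% of 118 genes of the respiratory chain and ATP synthase. Peaks were present at 21 of 47 divergent DNA repair genes (44.7%), where the share over all divergent genes was 51.7%. For the respiratory chain the share was 32 of 41 (78.0%), and it was 51 of 77 (66.2%) for the genes of that list without a divergent TSS. Cytosolic chaperones had peaks at 13 of 17 divergent genes (76.5%) and 16 of 29 others (55.2%).

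Within most lists, divergent and other genes had shares closer to each other than over all genes. They were 53.8% against 37.0% for aminoacyl-tRNA synthetases, 57.6% against 47.7% for splicing, 55.8% against 47.1% for tRNA and rRNA modification, and 44.2% against 41.9% for cell division. The mitochondrial ribosome went the other way, with peaks at 16 of 33 divergent genes (48.5%) and 30 of 49 others (61.2%), as did mitochondrial import and folding (71.4% of 14 against 77.3% of 22). Histone genes, which are clustered and often divergent, had peaks at 3 of 31 divergent genes (9.68%) and 11 of 72 others (15.3%). These shares were given no test.

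**Figure D5:**
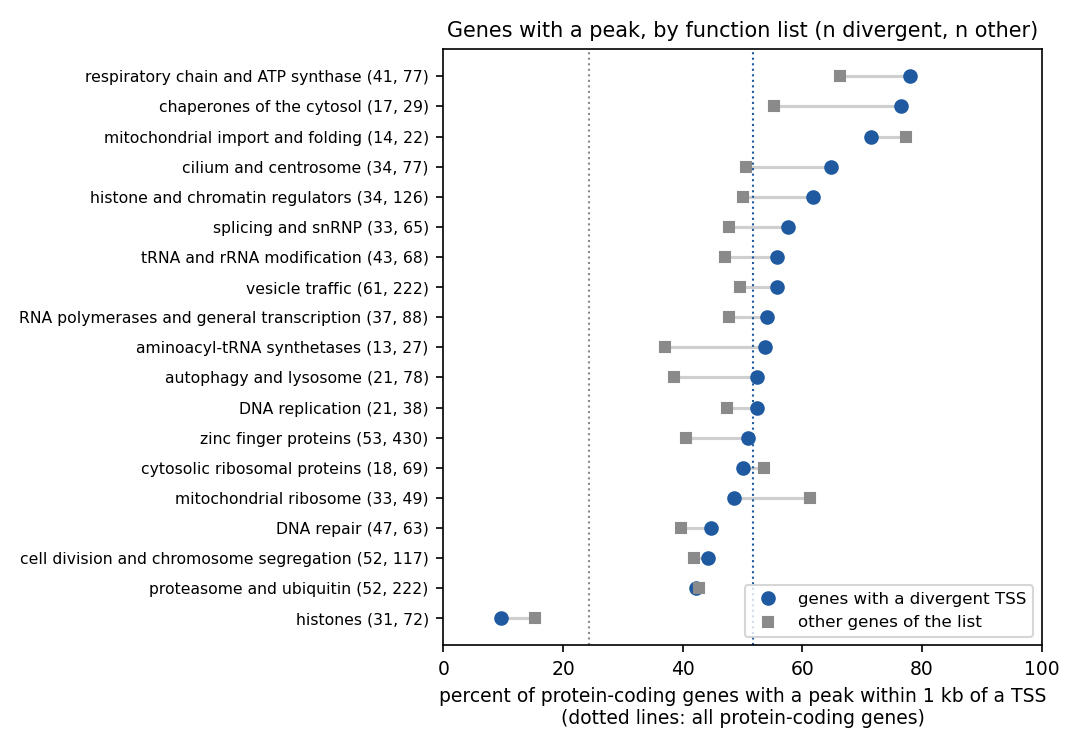
Percent of protein-coding genes with an NR2F2 peak within 1 kb of a TSS (x axis) for genes with a divergent TSS (blue circles) and other genes (grey squares) of each function list (y axis, with both numbers of genes), for lists with at least 13 divergent genes. Dotted lines mark 51.7% and 24.3% over all protein-coding genes, and the respiratory chain is highest at 78.0%.

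ChIP counts also differed between lists. The 34 members at respiratory chain genes had medians of 61 and 46.5 with 9 in the input, against 45, 37 and 8 over all members, and 76.5% of them held the core against 48.9%. Other promoter peaks at genes of the same list had medians of 61.5 and 50 with 8 in the input, so the divergent ones did not stand above the rest of the list. At the respiratory chain genes 4 of 34 members were called above the typical ratio and at proteasome and ubiquitin genes 4 of 24, where 3.82% of all members and 1.53% of all peaks were called. The 26 members at DNA repair genes had 39.5, 33.5 and 7, and edgeR called 0 of them. The 20 members at RNA polymerase and general transcription genes had 51, 46.5 and 10.5, with 2 called, and the 25 at tRNA and rRNA modification genes had 49, 39 and 9, with 3 called.

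Single members illustrate the lists. Chchd1, a subunit of the mitochondrial ribosome, overlaps 6230400D17Rik, and its peak had 178 and 174 ChIP counts over 9 (log2 ratio 1.97 ± 0.38, edgeR adjusted p = 0.000101, up to 0.0770 in the alternatives). Shc1/Cks1b, an adaptor of receptor signalling with a cyclin-dependent kinase subunit, had 111 and 91 over 5 (edgeR adjusted p = 0.0142, up to 0.181). Fbxo36/Trip12, with a ubiquitin ligase gene, had 125 and 101 over 5 (edgeR adjusted p = 0.00324, up to 0.130). Prmt1, an arginine methyltransferase gene, had 100 and 104 over 5 at its pair with Gm15545 (edgeR adjusted p = 0.0120, up to 0.180).

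Members of the biosynthetic lists, picked in the same way, had values nearer to the typical member. Yars/S100pbp, with tyrosyl-tRNA synthetase, had 84 and 86 over 8, and Nkiras1/Rpl15, with a protein of the large ribosomal subunit, had 81 counts in both ChIP libraries over 9. Ap4m1/Mcm7, with a subunit of the replicative helicase, had 75 and 56 over 6. Mvk/Mmab, where mevalonate kinase of cholesterol synthesis meets an enzyme of vitamin B12 metabolism, had 75 and 55 over 11. Hsd17b7, an enzyme of cholesterol and oestrogen synthesis, had 65 and 53 over 9 at its pair with 3110045C21Rik. At Apol7d/Fn1, the only member of the collagen and laminin list, which also held fibronectin, the counts were 37 and 34 over 9. None of these 6 was called above the typical ratio.

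Of the divergent pairs known from textbooks that were looked up, 5 had member peaks and a larger number had none. Beside them, 51.7% of all divergent protein-coding genes had a peak within 1 kb of a TSS. The mitochondrial chaperonin genes Hspe1 and Hspd1 had 2 member peaks, 209 bp apart. The first, in an intron of Hspd1, had 47 and 66 ChIP counts over 9 in the input, and the second, over the TSSs, had 74 in both ChIP libraries over 1. Their ChIP counts were similar and their inputs were not. The second was above the typical ratio (log2 ratio 3.85 ± 0.87, edgeR adjusted p = 0.00172, up to 0.0923 in the alternatives) and the first was not (0.34 ± 0.51, edgeR adjusted p = 0.911).

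Other textbook pairs had lower fitted ratios than the second of these peaks, though not always lower ChIP counts. Paics/Ppat, both of purine synthesis, had 125 and 96 over 13 (log2 ratio 0.77 ± 0.39, edgeR adjusted p = 0.480). Son/Gart had 35 and 29 over 4 (log2 ratio 0.68 ± 0.71, edgeR adjusted p = 0.854), and Prkdc/Mcm4, of DNA end joining and replication, had 27 and 24 over 10 (log2 ratio -0.96 ± 0.56, edgeR adjusted p = 0.590). No member lay at Atm/Npat, Surf1/Surf2, Tap1/Psmb9, Sars2/Mrps12, Hars/Hars2, Acat2/Tcp1, Trp53/Wrap53, Brca1/Nbr1 or the collagen IV pairs.

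At 53 pairs with 2 peaks the peaks were separated by a median of 449 bp (197 to 1211 bp). Of 42 such pairs in which both peaks were head to head, 29 had 1 peak inside each gene, on either side of the spacer. For the summed ChIP counts of the 2 peaks, the median ratio of the higher to the lower was 1.27 and the highest 2.01, at Mfsd11/Srsf2. Peaks of different pairs were not compared in this way. The strongest such pair was Akt1s1/Tbc1d17, genes of a kinase target and of a Rab regulator, with 135 and 98 counts over 8 in one peak and 130 and 94 over 18 in the other.

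Cell type genes of the fetal testis were absent from the members. Of 35 marker genes of interstitial, fetal Leydig, Sertoli, germ, endothelial, immune and contractile cells, 0 had a divergent TSS in the annotation, where 13.9% of all protein-coding genes had one. A peak within 1 kb of a TSS was present at 7 of the 35, among them Gata4, Gli1, Kdr, Nr2f2, Tcf21 and Tmsb10, where the share over all protein-coding genes without a divergent TSS was 24.3%.

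The peaks nearest to the limit of 1 kb were these. The last member inside it was Grhl2/Gm16136, where the farther TSS was 1000 bp from the peak edge, with 33 and 20 ChIP counts over 4, after Rad51b/Zfyve26 at 996 bp with 16 and 20 over 6. The first peak outside it was at Kcnd3/Kcnd3os, at 1015 bp, with 42 and 33 over 7, before Stk35/Stk35os1 at 1024 bp with 53 and 50 over 13. Within 100 bp of the limit there were 14 members inside and 12 peaks outside.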

How the data were processed

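Counts of reads per peak for 2 ChIP libraries and 1 input were used as the authors deposited them. Per the study's methods and the submitters' processing notes, the authors trimmed single-end reads with Trim Galore 0.6.7, mapped them to mm10 with Bowtie2 in local mode, kept alignments of mapping quality 5 or more, and removed duplicates with Picard 1.110. They called peaks on the merged ChIP replicates with HOMER 4.11.1, resized them to 300 bp and dropped blacklisted regions. The sources used here do not give how reads were assigned to peaks. Duplicate removal limits how high a count can rise, and reads without molecular identifiers are not independent molecules, so intervals and floors cover counting error only. The totals at peaks (73251 for input, 426784 and 364261 for ChIP) are not sequencing depths.

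Members were found with 45756 curated RefSeq transcripts of 26180 genes (GRCm38). All 10069 peaks were fitted with edgeR 4.0.16 (glmQLFit and glmQLFTest, R 4.3.3), with TMM factors for the typical ratio and none for equal depth, and DESeq2 1.42.0 was an alternative. Adjusted p-values are by Benjamini-Hochberg at 0.05. Other values were computed with Python 3.11.15, scipy 1.17.1 and pandas 2.3.3, and sequence was read from the RefSeq genome with pysam 0.24.0. RefSeq promoters ran from 250 bases before to 50 after a start. Fits and the binomial test were checked on simulated counts. Peaks named were the 10 strongest head-to-head members, up to 10 above the typical ratio, and those of highest or no input. Also named were textbook pairs, up to 3 members with the most ChIP counts per function list, and those at the 1 kb limit. The strongest member, the direct repeat and its promoters, the called members without a core and the pairs with 2 peaks were chosen after their values were seen. The members and lists were chosen with earlier results of these data known. The single input cannot show its own spread. Values at a few genes are not reported here.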

Additional observations from a re-analysis of the deposited data

How the results depend on the processing

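The number of divergent promoter peaks was 601 with NM_ transcripts only, which drops non-coding partners, and 1458 with predicted transcripts added. The 37 members above the typical ratio (3.82%, against 1.53% of all peaks) became 7 with DESeq2 size factors (0.722% against 0.387%). Without scaling factors they were 24 (2.48% against 1.01%). With DESeq2 they were 3 (2.59% against 3.15%), with no excess among the smaller set of peaks left with an adjusted p. With at least 10 input counts they were 13 (fewer peaks tested, 4.30% against 2.39%). Except for that minimum, the cause was not tested. The 819 of 969 members above input at equal depth became 0 with the ChIP libraries 2 times deeper and 274 of the 302 tested with at least 10 input counts, 957 with the ChIP libraries 2 times shallower and 961 in the robust fit. The log2 difference from other promoter peaks was 0.07 to 0.08 and the ratio of ChIP counts 1.15 to 1.16 when each replicate was left out. They were 0.04 and 1.17 among peaks that overlap a TSS, 0.08 and 1.14 within GC strata, 0.06 and 1.14 with a window of 500 bp, and 0.02 and 1.05 with at least 10 input counts, and the log2 difference was 0.08 with 5 added to each count. The GC difference was -0.333 percentage points and -0.500 among peaks that overlap a TSS. The core was in 24.4% of members as AGGTCA only, in 6.91% in the extended form AGAGGTCA or AGGGGTCA, and in 1.65% as the direct repeat, a search added after the data had been seen. Head-to-head pairs were 86.2% with NM_ transcripts only. No paired analysis was possible because the label of the input carries no replicate number. With a median of 8 input counts at members, the input limits every ratio.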
